A study of Homo sapiens with 8 samples.

Results

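Homeobox and POU genes mostly encode transcription factors that bind DNA through a homeodomain. Their messenger RNA was examined in LY2, a breast cancer cell line derived from MCF-7 that no longer responds to endocrine therapy. The genes were taken by symbol, in a choice made with earlier results of these data known. They were the HOX genes of clusters A to D and the numbered genes of several families. These were the POU, PAX, LHX, IRX, MEIS, PBX, DLX, MSX and NKX families and the family of SIX2. The names matched 112 genes among the 63677 rows of the table, and 12 further rows were second copies of PBX2 and POU5F1 that held 0 in every library. Of the 112 genes, 69 had at least 10 normalized reads in at least 4 of the 8 libraries and entered the test, as did 19559 genes in all. The other 43 stayed under that filter. POU3F1, one of those 43, is described whatever its level.

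The study set LY2 cells that stably carried a non-targeting short hairpin RNA (shNT, 4 libraries) against LY2 cells with a short hairpin RNA against NCOA1 (shSRC1, 4 libraries). The NCOA1 product, SRC-1, helps nuclear receptors such as the estrogen receptor to activate transcription. Cells of both groups were grown in charcoal-stripped serum with 4-hydroxytamoxifen, the active metabolite of tamoxifen, and with puromycin at 500 ng/mL to keep the hairpins. Before RNA was taken, both groups spent 72 h without steroids and 8 h with 4-hydroxytamoxifen. Both groups therefore carry a hairpin and both received the drug, so the comparison concerns NCOA1 knockdown in treated cells and not the drug itself. The sources used here give neither the hairpin sequences, nor their number, nor whether each line is a pool or a clone, and an effect of NCOA1 knockdown and a difference between 2 derived lines cannot be told apart. The labels number the replicates without saying that they are separate cultures, so a p-value here speaks only of the spread between libraries, and part of that spread may be technical.

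The homeodomain is a small helical domain that reads short AT-rich DNA sites, and family members differ in the partner domains attached to it. HOX proteins set position along the body axis in the embryo and gain site specificity by pairing with PBX and MEIS proteins. POU proteins carry a second DNA-binding domain beside the homeodomain and recognise an octamer site, while LIM-homeodomain (LHX) proteins pair it with LIM domains. PAX proteins carry a paired domain, and only some of them also have a full homeodomain. In adult epithelia many of these genes stay active in a pattern that marks the tissue of origin, and several are altered in breast cancer.

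The 4 shNT libraries held 58459196 to 67022036 reads. Among the shSRC1 libraries, replicates 1, 3 and 4 held 65321247 to 66248960, and replicate 2 held 33771775. NCOA1 had 4381, 4212, 4467 and 4525 normalized reads in the shNT libraries and 1927, 1895, 2215 and 2107 in the shSRC1 libraries (log2 fold change -1.11, SE 0.08, limma adjusted p = 2.25e-07). The groups did not overlap. Luminal breast epithelial markers were present throughout, with summed levels of 340043 to 416533 normalized reads in shNT and 513845 to 583254 in shSRC1. In that list KRT8, KRT18 and KRT19 rose and the other 5 of 8 did not pass the test. Of the 8 fibroblast markers 5 were tested, of the 8 leukocyte markers 2, and of the 6 pluripotency markers none, and no gene of those lists passed the test. Summed fibroblast markers ran from 1636 to 2187 in shNT and from 1452 to 1978 in shSRC1. COL1A1 made up most of these sums, with means of 1810 in shNT and 1552 in shSRC1. The next highest, COL3A1, had 48.1 and 33.7. The leukocyte sums ran from 41.8 to 100.3 and from 33.2 to 77.0, with 1 marker at 0 in every library, and the pluripotency sums from 2.67 to 28.8 and from 3.67 to 19.2. Fold changes are on log2(value + 1) and compare shSRC1 with shNT. In bulk RNA, fewer cells of a type and less RNA per cell cannot be told apart.

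A pair of libraries stood apart across the homeobox and POU genes. The shNT replicate 3 library was the lowest of its group for 38 of the 69 tested members, with a median deviation of -0.19 on the log2 scale from each gene's mean over the 8 libraries. The shSRC1 replicate 1 library was the highest of its group for 36 of the 69, with a median deviation of 0.14. Deviations of each library also followed transcript GC content across 18788 genes, with a Spearman rho from -0.22 in shSRC1 replicate 4 and in shNT replicate 3 to 0.48 in shSRC1 replicate 1, a relation across genes that are not independent. The members have a median GC content of 55.3%, against 48.7% for the tested genes. At a similar rho, shNT replicate 4 (-0.21) and shSRC1 replicate 4 had members' median deviations of 0.01 and -0.03. A link between GC content and the members' deviations was not tested. With single libraries left out, 15 of the 69 members passed the test without shNT replicate 3 (21.7%, against 21.3% of all tested genes). Without shSRC1 replicate 1, 13 passed (18.8%, against 17.1%). A correction for GC content and length gave 21 (30.4%, against 28.5%).

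By limma with an adjusted p under 0.05 over all tested genes, 18 of the 69 members (26.1%) passed, beside 23.2% of all tested genes, a share near the background. Higher in shSRC1 were 13 members (18.8%, against 12% of all tested genes), and lower were 5 (7.25%, against 11.2%). Those shares of all tested genes, 12% higher and 11.2% lower, are the background of every family, list and neighbour count below. Groups did not overlap for 17 members that were higher and 8 that were lower, or 24.6% and 11.6%, beside 16.9% and 12.1% of all tested genes, and 29% of all tested genes when both directions are counted. The median log2 fold change was 0.05 over the 69 members and -0.0025 over the tested genes, and without shNT replicate 3 the members' median was -0.01. These counts describe genes that passed a filter on their level, and some passed mainly through 1 group: HOXD10 and HOXB13 reached 10 normalized reads in 1 shNT library and in every shSRC1 library. Per kb of transcript, IRX3 and IRX5 were abundant genes that rose, and the largest ratios belonged to HOXD10 and POU3F2, the only members past the test that differed at least 2-fold. Among the genes that fell were LHX1, HOXD12, PAX8 and POU2F1. Of the 18, 12 passed under every alternative setting in which they were tested, and IRX3, HOXA7, HOXC6, HOXD12, PAX8 and POU2F1 did not.

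**Figure D1:**
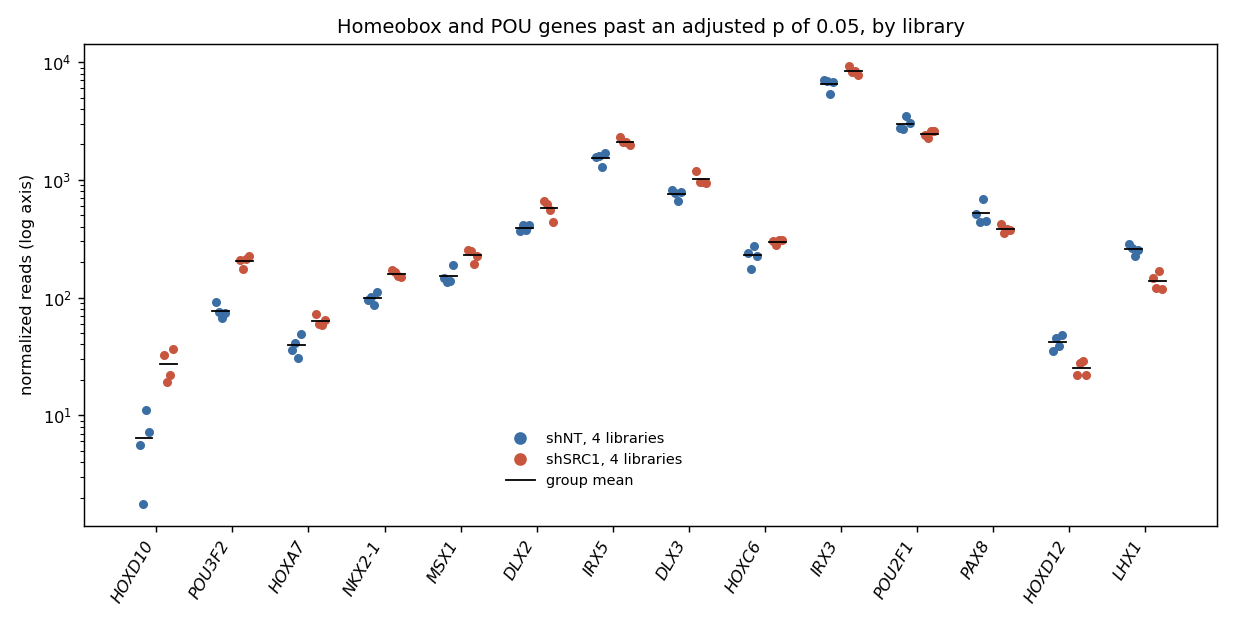
Normalized reads (log axis) of 14 homeobox and POU genes past an adjusted p of 0.05, with 1 point per library, 4 shNT in blue and 4 shSRC1 in red, and the group mean as a bar. HOXD10 lies between 1.78 and 11.1 in shNT and between 19.2 and 36.7 in shSRC1, and for each gene the groups do not overlap.

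Promoters are printed for 5 members, a pair from the HOXD cluster, a pair from the DLX cluster and POU3F2, because HOXD10 rose and HOXD12 fell, DLX2 rose and DLX1 did not pass the test, and POU3F2 had the smallest adjusted p. The sequences are the 250 bases before the RefSeq start on GRCh38.p14, 5′ to 3′ on the strand of the gene, and capitals mark GC boxes (GGGCGG) and CCAAT boxes (CCAAT), searched on both strands like the other motifs. The HOXD10 window is chr2:176116528-176116777, plus strand, and that of HOXD12 is chr2:176099545-176099794, plus strand.
HOXD10: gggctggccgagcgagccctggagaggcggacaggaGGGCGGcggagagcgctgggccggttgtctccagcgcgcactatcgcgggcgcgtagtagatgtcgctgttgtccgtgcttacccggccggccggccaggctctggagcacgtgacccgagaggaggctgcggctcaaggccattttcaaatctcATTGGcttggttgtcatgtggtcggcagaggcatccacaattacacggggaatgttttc
HOXD12: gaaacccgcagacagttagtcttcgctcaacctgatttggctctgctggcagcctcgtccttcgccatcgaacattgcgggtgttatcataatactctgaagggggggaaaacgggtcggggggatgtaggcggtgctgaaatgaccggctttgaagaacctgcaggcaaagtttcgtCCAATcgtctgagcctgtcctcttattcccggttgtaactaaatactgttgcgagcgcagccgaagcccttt
The DLX1 window is chr2:172085257-172085506, plus strand, and the DLX2 window is chr2:172102901-172103150, minus strand.
DLX1: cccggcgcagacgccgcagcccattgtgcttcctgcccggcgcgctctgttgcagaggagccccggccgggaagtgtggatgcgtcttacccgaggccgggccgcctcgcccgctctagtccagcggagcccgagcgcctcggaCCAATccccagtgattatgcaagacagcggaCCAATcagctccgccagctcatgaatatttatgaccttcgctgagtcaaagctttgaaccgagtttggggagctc
DLX2: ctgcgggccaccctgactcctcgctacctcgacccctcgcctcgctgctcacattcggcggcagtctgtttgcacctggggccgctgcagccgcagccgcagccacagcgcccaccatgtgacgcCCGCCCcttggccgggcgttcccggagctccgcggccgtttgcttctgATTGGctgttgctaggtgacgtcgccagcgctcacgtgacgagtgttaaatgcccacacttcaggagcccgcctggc
The POU3F2 window is chr6:98834324-98834573, plus strand.
POU3F2: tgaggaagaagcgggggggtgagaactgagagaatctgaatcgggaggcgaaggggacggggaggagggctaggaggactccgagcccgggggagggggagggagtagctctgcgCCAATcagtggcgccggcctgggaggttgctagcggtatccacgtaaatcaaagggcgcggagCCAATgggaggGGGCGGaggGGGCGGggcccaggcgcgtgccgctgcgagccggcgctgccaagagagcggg
GC content of these windows ran from 53.2% in HOXD12, below the median of all promoters, to 69.2% in POU3F2, and each held at least 1 CCAAT box. GC boxes were found in HOXD10, DLX2 and POU3F2 and not in the windows of HOXD12 or DLX1. The promoter table held 70 starts of 42 of the 69 tested members, so some genes have more than 1 window. A GC box was in 62.9% of these 70 windows and a CCAAT box in 40.0%, beside 42.6% and 32.0% of the 35116 windows in the table. A POU octamer (ATGCAAAT) was found in 4 of the 70, a homeodomain core (TAATTA) in 3, a HOX-PBX site (TGATTNAT) in 1 and a TATA box (TATAAA) in 5, and none of these motifs contains another. The shares were 5.71%, 4.29%, 1.43% and 7.14%, beside 1.63%, 4.35%, 2.48% and 10.7% of all windows. Median GC content was 65.2% over the members' 70 listed starts and 58.0% over all, and the median observed-over-expected CpG ratio was 0.76 against 0.56. Letters matched in these windows say nothing of which proteins bind them.

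The HOX clusters held 39 genes, of which 23 entered the test, 3 rose and 1 fell (17.4% called, against 23.2% of all tested genes). Levels compared between genes are per kb of the longest transcript. Summed per kb, the HOXC cluster was highest, at 3469 ± 267 (SD, n = 4) normalized reads per kb in shNT and 3965 ± 261 in shSRC1. HOXB followed with 615 ± 69.1 and 642 ± 31.2, of which HOXB7 alone made up 91.7% in shNT. HOXA reached 331 ± 42.7 and 343 ± 16.9, and HOXD 60.4 ± 3.44 and 69.7 ± 5.98. In shNT and in shSRC1 alike the HOXC sum was above the other clusters in every library, and HOXD was lowest.

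**Figure D2:**
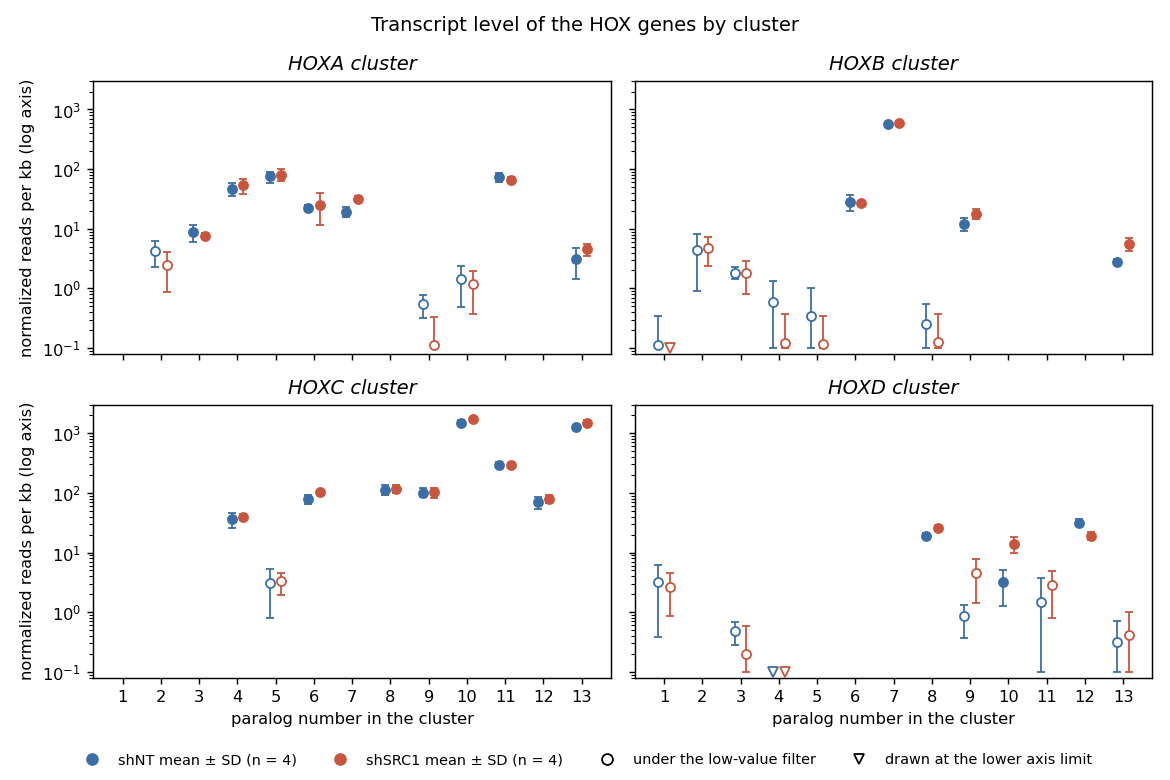
Normalized reads per kb (log axis) of HOX genes by its paralog number, in 1 panel per cluster, as mean ± SD of 4 shNT (blue) and 4 shSRC1 (red) libraries, with open symbols for genes under the filter and triangles for genes at 0, drawn at the axis limit. The HOXC genes reach the highest levels, led by HOXC10 and HOXC13, and the HOXD genes the lowest.

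Among the HOXD genes, which pattern limbs and the posterior trunk, 1 of the 3 tested rose and 1 fell. Of all tested genes 12% rose and 11.2% fell, and 3 genes are too few for a share. HOXD10 had 5.57, 1.78, 11.1 and 7.18 normalized reads in shNT replicates 1 to 4 and 32.3, 19.2, 21.8 and 36.7 in shSRC1. Every shSRC1 library was above every shNT library, and HOXD10 rose by 2.08 on the log2 scale (SE 0.45, limma adjusted p = 0.0046). Over the alternatives HOXD10 rose by 1.54, with a pseudocount of 5, to 2.53. Its reads totalled 28 in shNT and 109 in shSRC1. In the annotation 16.8% of its exon bases are shared with HOXD11 on the same strand, and HOXD11 itself had means of 2.30 and 4.41. HOXD12, a neighbour in the same cluster, had 35.3, 45.3, 39.0 and 48.4 in shNT and 21.8, 28.0, 29.1 and 22.0 in shSRC1. The groups did not overlap, and HOXD12 fell by 0.71 (SE 0.24, limma adjusted p = 0.0418). That call was lost in 10 of 18 alternatives, among them 7 of the 8 that leave out 1 library, with adjusted p up to 0.11. HOXD8 had means of 36.1 and 49.9 without overlap, a log2 fold change of 0.46 that did not pass (limma adjusted p = 0.125). HOXD9 stayed under the filter, with 2.78, 0.889, 1.86 and 0.897 in shNT and 9.49, 3.50, 16.4 and 4.58 in shSRC1. Its shNT values are at or under the level of 3 reads. The log2 ratio of HOXD12 to HOXD10 was 2.71 ± 0.98 (SD, n = 4) in shNT and -0.08 ± 0.63 in shSRC1, a description of a pair in which HOXD10 had only 1 shNT library at the filter level.

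HOXC genes were the most abundant of the clusters, and 1 of the 8 tested rose. HOXC6 had 238.5, 175.9, 273.9 and 226.1 normalized reads in shNT and 301.0, 279.9, 307.1 and 307.9 in shSRC1. The lowest shSRC1 library was only slightly above the highest shNT library, and the log2 fold change was 0.40 (SE 0.14, limma adjusted p = 0.0459). It passed in 7 of 19 alternatives and was lost under TMM and upper-quartile scaling, edgeR, the GC and length correction, no filter, and without any library other than shNT replicate 3, with adjusted p up to 0.12. In the annotation 15.7% of its exon bases are shared with HOXC4, HOXC5 and HOXC9. HOXC10, the leading HOX gene per kb at 1513 ± 139 and 1719 ± 93.8 normalized reads per kb, had 3150, 3040, 2537 and 2990 normalized reads in shNT and 3560, 3301, 3118 and 3336 in shSRC1. The groups overlapped and the log2 fold change of 0.19 did not pass (limma adjusted p = 0.126). HOXC13 had group means of 3042 and 3662 with no overlap and also did not pass (log2 fold change 0.27, limma adjusted p = 0.0575). The other HOXC genes tested, HOXC4, HOXC8, HOXC9, HOXC11 and HOXC12, had log2 fold changes from -0.03 to 0.19. Among the 20 nearest tested protein-coding genes around the HOXC cluster, 7 rose and 0 fell, beside 12% and 11.2% of all tested genes. Their median log2 fold change was 0.18, that of the 8 tested HOXC genes 0.19, and HOXC6 lay above both. A link between the cluster and its surroundings was not tested.

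HOXA and HOXB gave 1 call between them. HOXA7 had 36.2, 40.9, 30.6 and 49.3 normalized reads in shNT and 73.1, 59.5, 58.2 and 64.1 in shSRC1. The groups were separate, and HOXA7 rose by 0.70 on the log2 scale (SE 0.21, limma adjusted p = 0.0276). The call was lost in 6 of 19 alternatives, with no filter, without shNT replicate 1 or 3, without shSRC1 replicate 1 or 4, and with shNT replicate 3 and shSRC1 replicate 2 both out, with adjusted p up to 0.0764. In the annotation 62.5% of HOXA7 exon bases are overlapped by HOXA-AS3 on the opposite strand. Strand use in counting is not stated, so reads of HOXA7 and HOXA-AS3 cannot be told apart. The HOXA-AS3 row had means of 14.9 in shNT and 17.8 in shSRC1, a log2 fold change of 0.10 (limma adjusted p = 0.894). HOXA5, the leading HOXA gene per kb, had 114.1, 149.3, 92.8 and 142.6 in shNT and 100.6, 117.2, 149.0 and 166.8 in shSRC1, with overlapping groups and a log2 fold change of 0.09 (limma adjusted p = 0.755). HOXA3, HOXA4, HOXA6, HOXA11 and HOXA13 had log2 fold changes from -0.15 to 0.61, none past the threshold. HOXB7 had 744.2, 851.2, 671.2 and 826.2 normalized reads in shNT and 834.5, 792.5, 832.4 and 746.0 in shSRC1, a log2 fold change of 0.06 (limma adjusted p = 0.705). The groups overlapped widely. HOXB13, a posterior gene known for its part in prostate biology, had 9.28, 8.89, 11.1 and 9.87 in shNT and 26.6, 17.5, 18.2 and 15.6 in shSRC1. Its groups did not overlap, but its log2 fold change of 0.90 missed the threshold (SE 0.32, limma adjusted p = 0.0577). HOXB6 and HOXB9 had log2 fold changes of -0.04 and 0.57 and did not pass.

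Noncoding RNAs of the HOX clusters were tested in 9 cases, of which 1 rose and 2 fell, beside 12% and 11.2% of all tested genes. HOTAIR, transcribed within the HOXC cluster and known for recruiting chromatin repressors, had 508.5, 471.8, 601.6 and 501.5 normalized reads in shNT and 270.6, 327.2, 324.4 and 305.2 in shSRC1. The groups were far apart, and HOTAIR fell by 0.76 on the log2 scale (SE 0.11, limma adjusted p = 3.26e-04). HOXD-AS1 had means of 352.7 ± 30.0 (SD, n = 4) and 188.6 ± 17.0 and fell by 0.90 (SE 0.12, limma adjusted p = 1.25e-04). HOXC13-AS rose, from 321.5 ± 60.3 to 436.5 ± 36.1 (log2 fold change 0.46, limma adjusted p = 0.0256), and it overlaps 7.10% of HOXC13 exon bases on the opposite strand. Of the Polycomb genes, whose proteins silence HOX clusters, 3 of 23 tested rose and 2 fell, near the shares of all tested genes. They were led by PHC1 (0.33), CBX2 (-0.30) and PHC2 (0.34). Of the Trithorax and COMPASS genes, whose proteins maintain HOX activity, 0 of 13 rose and 3 fell by limma, namely KMT2A (-0.44), KMT2C (-0.36) and KMT2B (-0.79), a share near the 23.2% of all tested genes. In each of these 3 genes the shNT replicate 3 library was the highest, for KMT2A at 16162 normalized reads against 11052 to 13358 in the other shNT libraries.

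TALE homeodomain genes (PBX, MEIS and IRX) share an extended homeodomain, and many act as DNA-binding partners. PBX2 had 4820, 4762, 4588 and 4894 normalized reads in shNT and 4940, 4600, 4680 and 4554 in shSRC1, with overlapping groups and a log2 fold change of -0.02 (limma adjusted p = 0.847). The 95% interval of the PBX2 difference ran from -0.18 to 0.13. PBX3 and PBX4 had log2 fold changes of 0.06 and -0.26 and did not pass. MEIS3 was the tested MEIS gene, with 1286, 1227, 1134 and 1310 in shNT and 1684, 1358, 1430 and 1382 in shSRC1. These groups did not overlap, yet the log2 fold change of 0.24 missed the threshold (limma adjusted p = 0.0753), which it passed after the GC and length correction (adjusted p = 0.0374). MEIS1 and MEIS2 had means from 0.227 to 1.34 normalized reads, under the level of 3 reads. Of the related TALE cofactors PKNOX1, TGIF1 and TGIF2, only TGIF2 passed, and it rose by 0.31 (limma adjusted p = 0.0209).

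IRX3 and IRX5, neighbouring Iroquois genes with roles in heart, limb and neural patterning, rose together. IRX3, the highest member per kb at 2516 ± 309 and 3239 ± 252 (SD, n = 4) normalized reads per kb, had 7092, 6896, 5349 and 6841 normalized reads in shNT and 9300, 8314, 8368 and 7714 in shSRC1. The groups were separate, with shNT replicate 3 well under its group, and IRX3 rose by 0.37 (SE 0.10, limma adjusted p = 0.0153). Without shSRC1 replicate 1 its adjusted p was 0.0515. IRX5 had 1555, 1604, 1291 and 1686 in shNT and 2303, 2096, 2106 and 1968 in shSRC1 and rose by 0.47 (SE 0.09, limma adjusted p = 0.0030). It passed in every alternative. Of the 20 nearest tested coding genes around the pair, 4 rose and 0 fell, with a median of 0.12. IRX2 and IRX4, which lie together on chromosome 5, had log2 fold changes of -0.06 and 0.04 and did not pass.

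**Figure D3:**
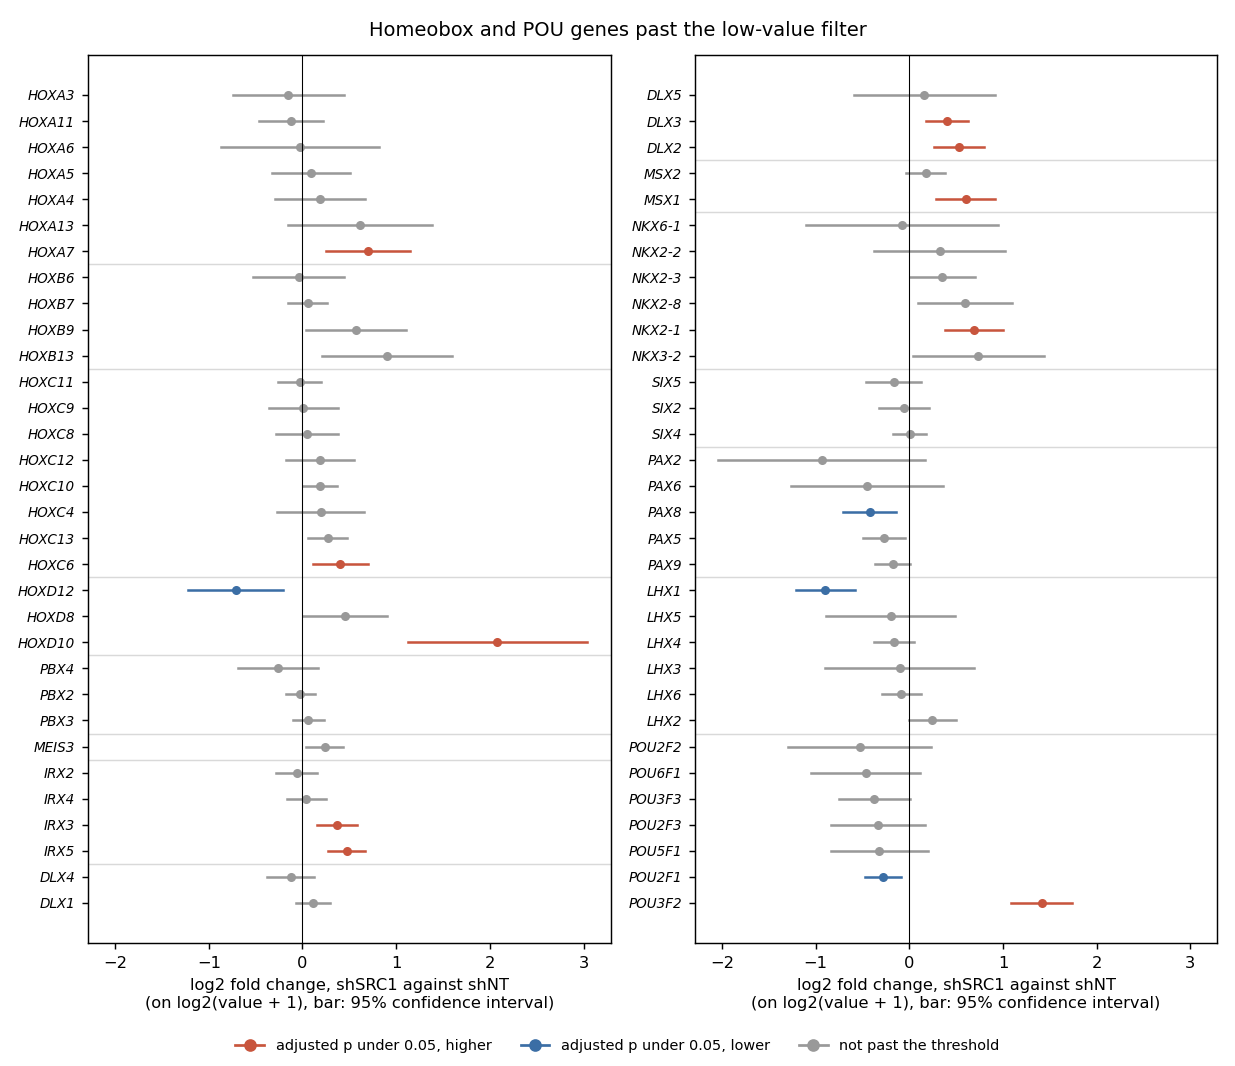
Log2 fold change (shSRC1 against shNT, on log2(value + 1), horizontal axis) of 64 tested members, grouped by family, with its 95% confidence interval as a bar. Red marks the 10 plotted members that rose, blue the 4 that fell and grey the rest. HOXD10 (2.08) and POU3F2 (1.41) lie farthest to the right and LHX1 (-0.90) is the lowest plotted member past the test.

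The DLX and MSX genes pattern the face, teeth and skin appendages. Of the 7 tested 3 rose and 0 fell, beside 12% and 11.2% of all tested genes. DLX2 had 371.2, 411.4, 373.2 and 412.7 normalized reads in shNT and 666.5, 624.6, 558.0 and 442.6 in shSRC1. Each shSRC1 library was above the shNT range, with replicate 4 closest to it, and DLX2 rose by 0.53 (SE 0.13, limma adjusted p = 0.0080). DLX1, its convergent neighbour and the leading DLX gene per kb, had 2118, 2491, 2094 and 2283 in shNT and 2621, 2402, 2428 and 2252 in shSRC1. The DLX1 groups overlapped and its log2 fold change of 0.11 did not pass (limma adjusted p = 0.349). DLX3, known for epidermal and placental roles, had 826.8, 768.6, 661.9 and 794.8 in shNT and 1190, 958.7, 960.5 and 940.2 in shSRC1. Its groups were separate, and it rose by 0.41 (SE 0.10, limma adjusted p = 0.0128). DLX4, beside DLX3 on chromosome 17, had a log2 fold change of -0.13 that did not pass, and DLX5 one of 0.16. MSX1, a repressor active in craniofacial and mammary development, had 146.6, 135.1, 137.4 and 188.4 in shNT and 255.4, 248.4, 192.7 and 223.6 in shSRC1. The gap between the groups was small, and MSX1 rose by 0.60 (SE 0.15, limma adjusted p = 0.0102). The related MSX2 had 1242, 1333, 1208 and 1418 in shNT and 1740, 1342, 1402 and 1398 in shSRC1, with overlap and a log2 fold change of 0.17 (limma adjusted p = 0.209).

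NKX2-1, a regulator of lung and thyroid identity, had 95.6, 102.2, 87.3 and 111.2 normalized reads in shNT and 170.9, 166.2, 153.6 and 149.4 in shSRC1. The groups stood clear of each other, and NKX2-1 rose by 0.69 (SE 0.14, limma adjusted p = 0.0038). NKX2-3, the leading NKX gene per kb, had 150.3, 147.5, 108.6 and 119.3 in shNT and 183.2, 147.0, 199.9 and 143.0 in shSRC1, with overlap and a log2 fold change of 0.35 (limma adjusted p = 0.129). Around NKX2-3 8 of the 20 nearest tested coding genes fell and 0 rose. NKX2-2, NKX2-8, NKX3-2 and NKX6-1 had log2 fold changes of 0.33, 0.59, 0.74 and -0.08, and none passed.

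Proteins of the SIX2 family work with EYA phosphatases and DACH cofactors, which help them to control progenitor growth. SIX4 had means of 1398 and 1404 normalized reads and a log2 fold change of 0.01. SIX2, the leading gene of the family per kb, had 1506, 1314, 986.0 and 1295 normalized reads in shNT and 1421, 1251, 1150 and 1046 in shSRC1, a log2 fold change of -0.06 (limma adjusted p = 0.757). Its groups overlapped fully. SIX5 had a log2 fold change of -0.17 and did not pass. In the list of EYA and DACH genes, 2 of 4 tested rose and 0 fell, beside 12% and 11.2% of all tested genes. DACH2 had 3.71, 6.22, 6.50 and 0.897 in shNT and 23.7, 12.2, 25.4 and 36.7 in shSRC1 and rose by 2.35 (SE 0.50, limma adjusted p = 0.0042), and EYA4 rose by 0.60 (limma adjusted p = 0.0172). DACH2 passed the filter only through the shSRC1 libraries, so its place among the 4 tested rests on the values that rose.

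Paired-box and LIM-homeodomain genes gave 2 falls and no rise among 11 tested, beside 11.2% lower and 12% higher among all tested genes. LHX1, a regulator of kidney and head formation, had 285.8, 263.0, 227.5 and 255.7 normalized reads in shNT and 148.1, 120.7, 169.0 and 118.2 in shSRC1. No library of one group reached the other, and LHX1 fell by 0.90 (SE 0.15, limma adjusted p = 6.92e-04). Around it 5 of the 20 nearest tested coding genes rose and 0 fell, with a median of 0.08. LHX6, the leading LHX gene per kb, had 801.8, 797.0, 656.4 and 698.8 in shNT and 734.8, 680.6, 664.3 and 695.5 in shSRC1. Its groups overlapped, with a log2 fold change of -0.09 (limma adjusted p = 0.540). LHX2, LHX3, LHX4 and LHX5 had log2 fold changes of 0.24, -0.10, -0.16 and -0.20. None of the 11 tested LIM domain cofactor genes passed. PAX8, known in thyroid, kidney and the female reproductive tract, had 513.2, 442.5, 682.4 and 447.6 in shNT and 419.6, 355.2, 380.8 and 375.7 in shSRC1. The groups did not overlap, with shNT replicate 3 far above the rest, and PAX8 fell by 0.42 (SE 0.13, limma adjusted p = 0.0337). Without that library it was -0.29 (limma adjusted p = 0.062), and the call was lost in 7 of 19 alternatives. PAX9, the leading PAX gene per kb, had 921.5, 973.8, 995.2 and 954.5 in shNT and 894.3, 775.0, 915.1 and 825.7 in shSRC1, with no overlap and a log2 fold change of -0.18 that did not pass (limma adjusted p = 0.158). PAX2, PAX5 and PAX6 had log2 fold changes of -0.94, -0.27 and -0.45 and did not pass.

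POU3F2, a factor of neural progenitors and of neuroendocrine and melanoma cells, had 90.9, 75.5, 67.8 and 73.6 normalized reads in shNT and 207.9, 176.7, 211.7 and 227.3 in shSRC1. The lowest shSRC1 library was well above the highest shNT library, with group means of 76.9 ± 9.89 and 205.9 ± 21.2 (SD, n = 4). POU3F2 rose by 1.41 on the log2 scale (SE 0.15, limma adjusted p = 1.81e-05) and by 1.35 to 1.49 over the alternatives. Of its 20 nearest tested coding genes 1 rose and 1 fell, and their median was -0.01. In the list of neuronal markers 1 of 4 tested rose (MAP2, 0.39) and 2 fell (SYT1, -0.36, and RBFOX3, -0.82, by limma). Summed neuronal markers ran from 2306 to 2586 in shNT and from 2227 to 2768 in shSRC1. SYT1 (means 1168.5 and 915.0) and MAP2 (1177.6 and 1542.9) made up most of these sums. The next highest, RBFOX3 and SNAP25, had 32.2 and 31.2 in shNT and 17.8 and 23.9 in shSRC1.

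POU2F1, a broadly expressed octamer-binding factor and the leading POU gene per kb, had 2774, 2718, 3471 and 3062 normalized reads in shNT and 2393, 2269, 2593 and 2607 in shSRC1. Its groups were separated by a narrow gap, and POU2F1 fell by 0.28 (SE 0.09, limma adjusted p = 0.0399). The call was lost in 8 of 19 alternatives, with adjusted p up to 0.162. POU2F2, POU2F3, POU3F3, POU5F1 and POU6F1 had log2 fold changes from -0.53 to -0.32, and none passed. POU3F3 had no overlap between groups (means 87.5 and 66.6, limma adjusted p = 0.136). POU5F1, a pluripotency factor with expressed pseudogene copies, had means of 69.8 ± 22.3 and 54.0 ± 9.40 (SD, n = 4), and reads of the gene and its copies may be split.

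POU3F1, a factor of Schwann cells and other neural lineages and a close relative of POU3F2, was near the limit of detection. It had 1.86, 3.55, 3.71 and 3.59 normalized reads in shNT, from 2, 4, 4 and 4 reads, and 8.54, 3.50, 7.27 and 3.67 in shSRC1, from 9, 2, 8 and 4 reads. The groups overlapped. In all, 14 reads stood against 23. In the limma fit without a filter the log2 fold change was 0.64 (95% interval -0.45 to 1.73, adjusted p = 0.537), and the exact permutation test gave p = 0.2. A difference was not detectable at this depth, and the interval includes changes of either sign. The related POU3F4 was at 0 in every library.

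**Figure D4:**
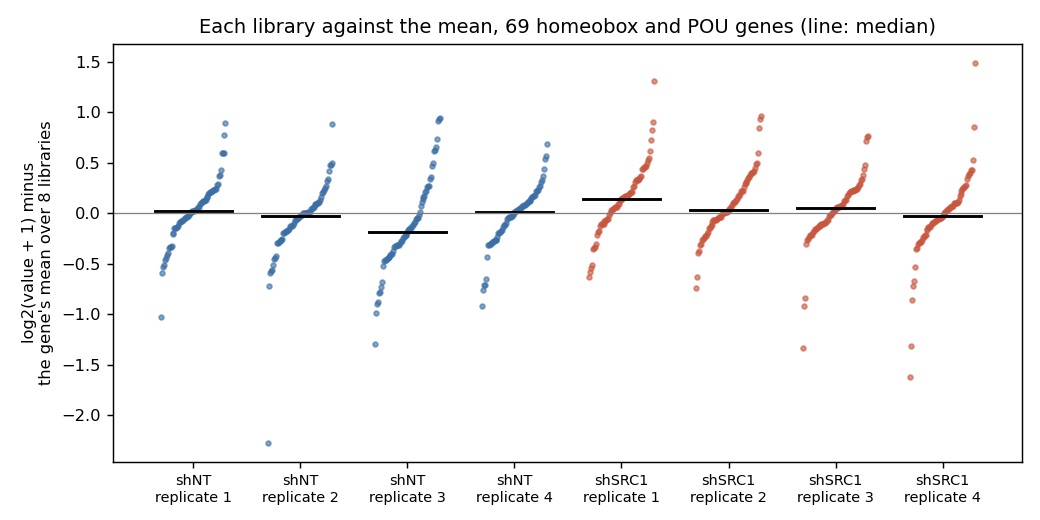
Log2(value + 1) of each of the 69 tested homeobox and POU genes minus that gene's mean over the 8 libraries (vertical axis), with 1 point per gene in rank order and a bar at the median, for the 4 shNT and 4 shSRC1 libraries. The median of shNT replicate 3 lies at -0.19 and that of shSRC1 replicate 1 at 0.14, beyond the other 6 libraries.

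Neighbouring members were compared with each other in 26 adjacent pairs of tested members within 1 Mb, chosen after their values were seen. Comparing the log2 ratio of a pair between groups cancels whatever raises or lowers both genes alike. In 9 pairs the ratios of the groups did not overlap, which gives the smallest p that 4 against 4 libraries allow (exact permutation test, two-sided, p = 0.0286, 0.0825 after adjustment over the 26 pairs). None passed after adjustment, which at this smallest p would take more separated pairs than the 9 seen, so the adjusted test could not decide for a single pair. The share among other gene pairs was not computed. For DLX1 to DLX2 the ratio was lower in shSRC1 by -0.42, and for DLX4 to DLX3 by -0.53. HOXA7 to HOXA11 differed by 0.82. IRX3 to IRX5, which rose together, differed by -0.10.

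Of the 43 genes under the filter, 12 were at 0 in every library: DLX6, HOXD4, LHX8, NKX1-1, NKX2-4, NKX2-6, NKX6-3, PAX1, PAX4, POU3F4, POU4F1 and POU4F2. A count of 0 allows up to 3 reads, which is 2.67 to 2.79 normalized reads in shNT and 2.73 to 5.25 in shSRC1, counting error only. The other 31 had reads, namely HOXA2, HOXA9, HOXA10, HOXB1, HOXB2, HOXB3, HOXB4, HOXB5, HOXB8, HOXC5, HOXD1, HOXD3, HOXD9, HOXD11, HOXD13, IRX1, IRX6, LHX9, MEIS1, MEIS2, NKX1-2, NKX2-5, NKX6-2, PAX3, PAX7, POU1F1, POU3F1, POU4F3, POU5F2, SIX3 and SIX6. Nearest the filter, PAX2 and NKX6-1 lay inside, where the value reached by at least 4 libraries was 10.5 and 15.1 normalized reads, and LHX9 and HOXA2 lay outside, where it was 8.25 and 8.00.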

How the data were processed

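Oligo(dT)-captured RNA of 8 LY2 libraries, 4 shNT and 4 shSRC1, was sequenced after preparation with an Illumina TruSeq RNA kit, per the labels' protocols, which do not call the kit stranded. The authors deposited 1 table of 63677 genes by 8 libraries, with values in the unit of a signal, each gene's count over its library's size factor. TopHat2 2.0.12, HTSeq 0.6.1, DESeq2, DESeq and the GRCh37 build are named in the submitters' processing notes, but the sources used here do not give the counting options. Whole reads could be recovered, with 100.0% of the deposited values whole within 0.001 reads.

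Groups were compared by limma 3.58.1 (R 4.3.3; trend, robust) on log2(value + 1) in genes that reached 10 normalized reads in 4 or more libraries, two-sided and Benjamini-Hochberg adjusted over all of them at 0.05. It was tested on simulated data with known fold changes, drawn independently for each library and without the GC trends described above. edgeR 4.0.16 on the recovered reads called 4637 genes and DESeq2 1.42.0 called 5304, beside 4538 with limma. Other alternatives were TMM and upper-quartile scaling, pseudocounts of 0.5 and 5, no filter, a minimum of 50, a GC and length correction, a replicate block, and libraries left out.

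The members and gene lists were chosen with earlier results of these data known. Values per library are given for NCOA1, POU3F1, up to 14 members past the threshold by smallest adjusted p, and the leading member of each family per kb. Those of HOXC6, PAX8, HOXB13, HOXD9 and DACH2 were added after they were seen, as were the neighbour and pair comparisons. Up to 3 genes of each other list past the threshold are named. Transcript length, GC content, overlaps and gene order come from GENCODE 29 on GRCh38, a different build, joined by Ensembl identifier (1 member by symbol), with lengths for 96.1% of tested genes. Promoters come from RefSeq on GRCh38.p14. Some members and list genes that these rules take are not reported here.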

Additional observations from a re-analysis of the deposited data

Results flagged for a closer look

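In groups of 4 libraries, a value was marked where its gap to the nearest other library exceeded, as a share of the group's range, Dixon's critical value. Of 50 such groups of named genes, 4 held a marked value, and chance gives about 1 in 20. IRX3 had 5349 normalized reads in shNT replicate 3, below 6841 to 7092 in the other shNT libraries. DLX3 had 1190 in shSRC1 replicate 1, above 940.2 to 960.5, and MSX2 had 1740 in the same library, above 1342 to 1402. POU3F1 had 1.86 in shNT replicate 1, below 3.55 to 3.71, a difference of 2 reads against 4.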

How the results depend on the processing

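With the main setting 13 members were higher and 5 lower, and 2344 and 2194 genes in all. Without a filter 3 members were lower, and with shNT replicate 3 and shSRC1 replicate 2 both left out 2 were. With each library left out in turn the counts ran from 10 to 12 members higher and 2 to 4 lower, and from 1688 to 2524 genes higher and 1453 to 2291 lower, the last count lowest without shSRC1 replicate 2, the shallowest library. The cause of these shifts was not tested. Alternatives were run one by one for the members given by library, except HOXB13 and HOXD9. Of the members so checked, 3 turned direction, none past the threshold in the main setting. HOXB7 was at -0.0046 after the GC and length correction and at -0.0048 with both libraries out, and ran from -0.0096 to 0.10 with single libraries left out. HOXA5 ran from -0.039 to 0.22 and SIX2 from -0.18 to 0.025. NCOA1 passed in all 19 alternatives, and POU3F1 in 0 of 16, since DESeq2 gave no adjusted p and a minimum of 50 removes it. HOXD10 and HOXD12 could not be tested at that minimum.

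With the replicate number as a block, 17 members were higher and 5 lower, the 18 main calls among them, and 3290 and 3108 genes in all. The deviations of same-numbered libraries correlated at 0.24, -0.01, 0.13 and 0.14 for numbers 1 to 4, and not every library correlated best with its own number. The labels name no source that same-numbered libraries share, so the numbers were not taken to pair the libraries in the main setting. The rho with GC content ran 0.18, -0.09, -0.22 and -0.21 over shNT replicates 1 to 4. In shSRC1 it ran 0.48, 0.19, -0.10 and -0.22. Whether same-numbered libraries share a batch was not tested. HOXC10 (adjusted p = 0.0418) and MEIS3 (adjusted p = 0.0325) passed by limma only with the block or, for MEIS3, also with the GC and length correction. At 3 reads, levels of POU3F1, HOXD9 and HOXD11 are limited by depth.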

Other observations

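Among 62 homeobox genes outside the families above, 28 were tested, 6 rose and 3 fell by limma. Of all tested genes 12% rose and 11.2% fell. ONECUT2, a hepatic and neural factor, had 15.8, 14.2, 14.8 and 9.87 normalized reads in shNT and 46.5, 52.5, 32.7 and 47.6 in shSRC1 and rose by 1.64 (SE 0.28, limma adjusted p = 8.62e-04). Its relative ONECUT1 had means of 310.1 ± 51.4 and 197.2 ± 18.0 (SD, n = 4) and fell by 0.64 (limma adjusted p = 0.0048). ONECUT1 was picked out after its values were seen, and the difference between these genes was not tested. HOPX, a homeodomain protein that does not bind DNA, rose by 1.22 (limma adjusted p = 0.0017).

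Retinoic acid is a known inducer of HOX genes. Of 13 tested genes of its pathway 3 rose and 2 fell by limma, beside 12% and 11.2% of all tested genes. CYP26B1, which degrades retinoic acid, had 97.4, 83.5, 80.8 and 55.6 normalized reads in shNT and 263.0, 269.4, 275.4 and 241.0 in shSRC1 and rose by 1.74 (SE 0.17, limma adjusted p = 6.15e-06). ALDH1A3 and ALDH1A2, enzymes that make retinoic acid, fell by 1.03 (limma adjusted p = 3.04e-04) and 0.84 (limma adjusted p = 0.0251). Other genes of the pathway, chosen after their values were seen, went the other way. RDH10, which makes the retinal precursor, rose by 0.27 (limma adjusted p = 0.0458), as did the receptor gene RARA (0.27, limma adjusted p = 0.0418). ALDH1A1, a related synthesis enzyme under the filter, had means of 2.03 and 14.1 normalized reads.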
